A study of Mus musculus with 35 samples.

Results

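Expression of 9 genes of the reproductive axis and of KNDy neurons was examined in the mouse hypothalamus: Kiss1, Tac2, Pdyn, Gnrh1, Kiss1r, Tacr3, Esr1, Pgr and Prlr. They were taken by gene name from a list of peptides and receptors of this axis, and they are 9 of the 49568 gene names counted. All 9 were found in the tables, 8 had enough counts to be tested, and Kiss1 did not. None of the 8 passed the test in any of 7 comparisons of feeding state and Per2 genotype. Tac2, Gnrh1, Esr1 and Prlr varied between libraries of the same group by more than most genes tested. Esr1 and Prlr varied together within groups, and less closely within the sets of libraries that their numbers define.

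The samples were 35 polyA RNA libraries made from hypothalamus of male B6/J mice collected at Zeitgeber time 16 (ZT16, hours after lights-on). The block that was cut out is given by its stereotaxic borders in the labels. Of the control mice, 10 had free access to food and 10 were fasted for 16 h. Mice of genotype PER2-S662D were fed (n = 5) or fasted (n = 5), and mice labelled Per2 ko were fasted (n = 5). PER2 is a repressor of the circadian clock, and the S662D form replaces a serine of the protein, a known phosphorylation site, by aspartate. Age, the construct behind the S662D genotype and the knockout allele are not given in the sources used here. The labels number the samples within a group but do not say that each came from a separate animal, so p-values measure the spread between these samples.

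Total counts were 17959586 to 37027342 per library. Per2 stood at 25.9 to 33.1 CPM (counts relative to the TMM-scaled library size) in the 20 control libraries, at 28.2 to 33.4 in the 5 libraries labelled Per2 ko and at 16.4 to 22.7 in the 10 S662D libraries. The label of the knockout libraries is therefore not matched by a lower Per2 count, and they are called the labelled knockout here. Which exons the allele removes is not given, so the count over all exons is no full check of the label. All 10 hypothalamic marker genes were detected in every group, with a summed level of 522 to 756 CPM per library. Library numbers in the file headers set control replicates 1 to 5 (numbers from 121) apart from control replicates 6 to 10 (up to 150), and S662D replicates 2, 3 and 4 of both feeding states carry an additional digit of unstated meaning. The S662D libraries with the digit held 18237587 to 37027342 counts and the 4 without it 19328359 to 34081435. Library range and genotype cannot be told apart for S662D and the labelled knockout.

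KNDy neurons of the arcuate nucleus are named for the 3 peptides they make: kisspeptin (Kiss1), neurokinin B (Tac2) and dynorphin (Pdyn). In the accepted scheme, neurokinin B acting on its receptor (Tacr3) excites these cells, dynorphin damps them, and the kisspeptin they release acts on its receptor (Kiss1r) on neurons that make gonadotropin-releasing hormone (Gnrh1). Gonadal steroids feed back through the oestrogen receptor alpha (Esr1) and the progesterone receptor (Pgr), and prolactin through its receptor (Prlr). Most of these genes are also used elsewhere in the brain, so a block of tissue sums several cell populations.

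Kiss1, the gene of the ligand at the head of the axis, could not be read as a level. It received 25 counts in all: 18 libraries had 0, 11 had 1, 4 had 2 and 2 had 3. A count of 0 allows up to 0.081 to 0.167 CPM depending on the library's depth, for counting error only. By group, the libraries held 8 counts in fed controls, 5 in fasted controls, 6 in fed S662D, 5 in fasted S662D and 1 in the labelled knockout. The 6 comparisons of mean CPM between 2 groups gave permutation p-values from 0.306 upwards (two-sided, exact except for the 10 against 10 controls), and the adjusted p was 0.967 for each. The count is limited by the annotation: of the 741 exon bases under the name Kiss1, 583 (78.7%) are also exons of Gm28040, a gene model that spans Kiss1 and its neighbour Golt1a. FeatureCounts by default assigns no fragment that fits several genes, and the headers hold no option that changes this. Only 158 bases (21.3%), at chr1:133323966-133324048 and chr1:133327135-133327209 (mm10), belong to Kiss1 alone. Both coding exons of Kiss1 lie within the shared bases. Gm28040 itself received 11 counts and Golt1a 8.

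The first 60 bases of the last coding exon of Kiss1 (chr1:133329356-133329415, plus strand, GRCm38) show the overlap. In the GENCODE M21 transcripts they occur in 2 of 2 transcripts of Kiss1, in 5 of 5 transcripts of Gm28040 and in 0 of any other gene, so a fragment of kisspeptin coding sequence fits both names.
Kiss1 coding bases: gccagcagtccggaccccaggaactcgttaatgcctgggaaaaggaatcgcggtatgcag

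Compared per exon length (FPKM), Tac2 had the highest and Esr1 the lowest level of the 8 tested genes. Means over the 35 libraries were 25.02 ± 6.98 FPKM (SD, n = 35) for Tac2 and 13.8 ± 1.30 for Pdyn, with Tac2 above Pdyn in 33 libraries. They were 3.81 ± 0.314 for Tacr3, 3.72 ± 0.419 for Pgr and 3.20 ± 0.303 for Kiss1r. Tacr3 exceeded Pgr in only 20 of 35 libraries, so these neighbours did not differ beyond their spread. Pgr exceeded Kiss1r in 29. Gnrh1 and Prlr shared a mean of 1.81 FPKM, with Gnrh1 higher in 15 libraries and Prlr in 20. Esr1 followed at 0.560 ± 0.131 FPKM, below Prlr in all 35 libraries. Among the 18063 genes tested, the mean FPKM put Tac2 at percentile 88.3, Pdyn at 78.4 and Esr1 at 15.9. The exon length sums all annotated isoforms, which lowers the FPKM of genes with long or many alternative exons such as Esr1 (13661 bases) and Prlr (15339 bases).

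**Figure D1:**
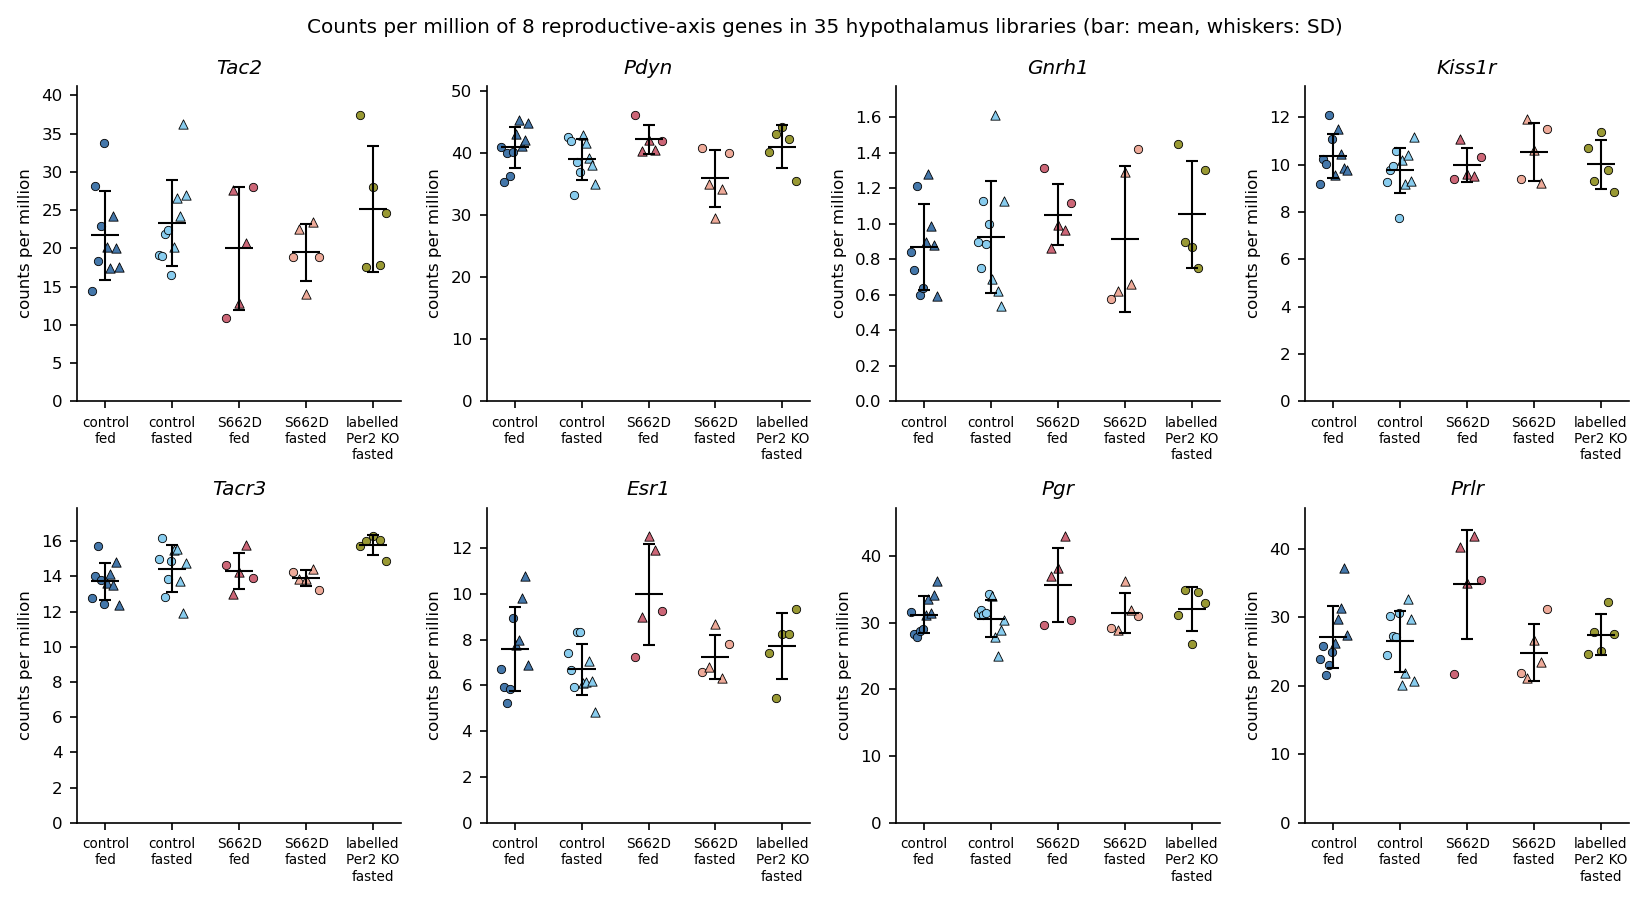
CPM values of Tac2, Pdyn, Gnrh1, Kiss1r, Tacr3, Esr1, Pgr and Prlr (vertical axes) in each library of the 5 groups (horizontal axes), with the group mean and SD. Triangles are control replicates 6 to 10 and S662D libraries with the additional digit, and circles are the others. Tac2 spans 10.9 to 37.5 CPM over the libraries, whereas Tacr3 spans 11.9 to 16.3.

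Tac2 (chromosome 10, 127724478 to 127731767, mm10, plus strand) varied more between libraries than Pdyn, the other KNDy peptide gene that could be compared. The level in fed controls was 14.4 to 33.8 CPM with a median of 20.1, and in fasted controls 16.5 to 36.2 with a median of 22.1. The fed S662D libraries stood at 10.9, 27.7, 12.8, 20.6 and 27.99 CPM, and the fasted at 18.8, 22.5, 13.96, 23.4 and 18.8. The labelled knockout libraries stood at 37.5, 17.6, 27.97, 17.8 and 24.6. Every group overlapped every other, and the highest and the lowest library differed by 3.43-fold. The biological coefficient of variation, which edgeR estimates within groups, was 0.274, at percentile 92.9 of the genes tested.

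The fitted log2 difference of Tac2 on fasting was 0.10 in controls (95% interval -0.26 to 0.47) and -0.06 in S662D mice (-0.57 to 0.46). In fed S662D against fed controls it was -0.10 (-0.55 to 0.35), and in the fasted state -0.26 (-0.71 to 0.19). Over the 7 comparisons the intervals of Tac2 reached from -0.79 (the difference of the responses) to 0.87 (the labelled knockout against S662D). A difference within the interval of its comparison was not excluded at this spread. In edgeR's test no adjusted p of Tac2 lay below 0.425.

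The level of Tac2 moved with markers of the medial habenula, a nucleus above the hypothalamus whose neurons are known to express Tac2. The summed level of its 4 markers (Pou4f1, Chrnb4, Chrna3, Gpr151) ran from 8.93 to 57.8 CPM over the libraries, with 0 of 4 at zero in any group. The groups spanned 8.93 to 55.2 CPM in fed controls, 9.46 to 55.3 in fasted controls, 9.46 to 52.3 in fed S662D, 27.0 to 57.8 in fasted S662D and 9.66 to 55.4 in the labelled knockout. Across the 35 libraries, centred on their group, Pearson's r between Tac2 and this sum was 0.798 and Spearman's rho 0.808. The permutation p of each was 1e-05, the smallest that 100000 resamples can give, and 0.00056 after adjustment over 56 relations. It was 0.770 without the 2 libraries farthest from the median, 0.757 in the 20 control libraries alone and 0.803 centred on the library sets. In bulk tissue, fewer cells of a type and less RNA per cell cannot be told apart, and the part of habenula tissue in the spread of Tac2 was not tested. Tac2 also had a Spearman's rho of 0.533 (permutation p adjusted 0.0438) and a Pearson's r of 0.511 (adjusted 0.0769) with the summed markers of cortex and hippocampus. The 2 genes with the most similar pattern to Tac2 among 15479 genes were Slc5a7 (r = 0.867, the choline transporter) and Chrnb4 (r = 0.852), which is itself one of the 4 markers.

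**Figure D2:**
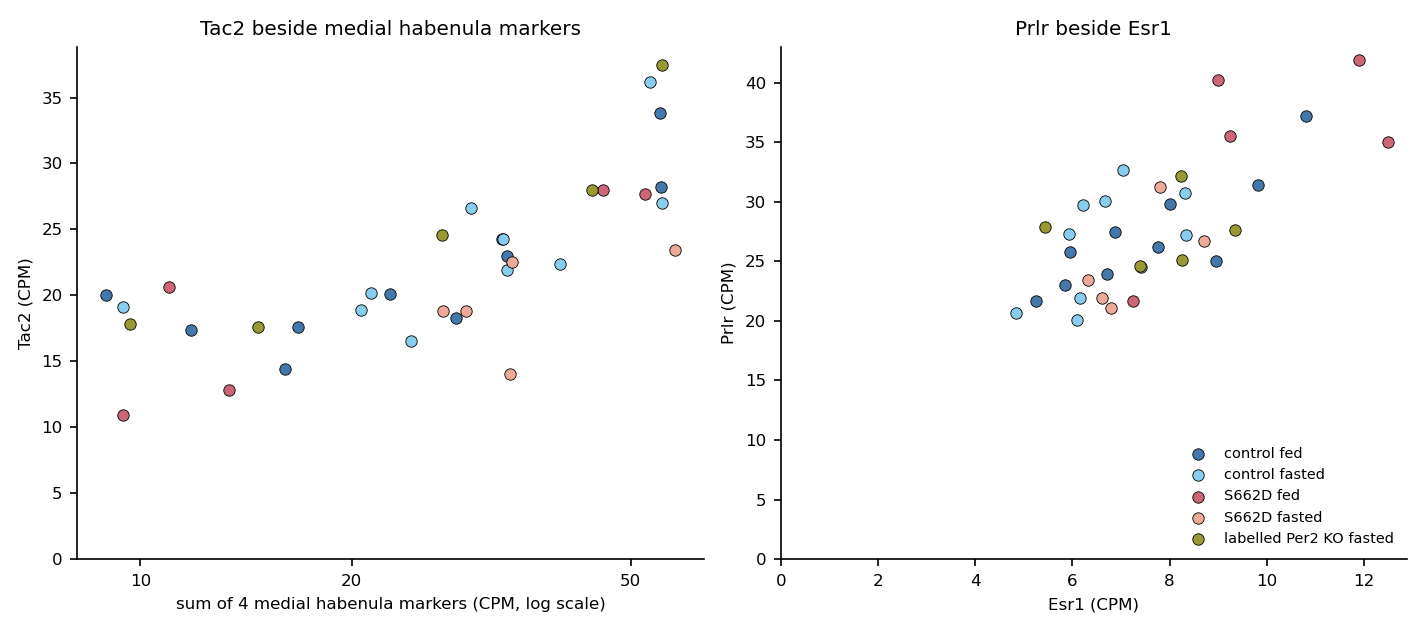
Left: Tac2 against the sum of 4 medial habenula markers, both in CPM, with a log horizontal axis. Right: Prlr against Esr1, both in CPM. Each point is 1 of 35 libraries, coloured by group. Tac2 tended to be higher in libraries with more habenula markers, and Prlr in those with more Esr1, but not in every library.

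The RefSeq window around the start of Tac2 (chr10:127724228-127724527, GRCm38.p6, plus strand, 250 bases before to 50 after the start) is shown because Tac2 has the highest level and the largest biological coefficient of variation of the members tested. Capitals mark CANNTG, the core of the E-box that clock and other basic helix-loop-helix factors bind, and GGTCA, a half-site of nuclear receptors, both searched on both strands.
Tac2 promoter window: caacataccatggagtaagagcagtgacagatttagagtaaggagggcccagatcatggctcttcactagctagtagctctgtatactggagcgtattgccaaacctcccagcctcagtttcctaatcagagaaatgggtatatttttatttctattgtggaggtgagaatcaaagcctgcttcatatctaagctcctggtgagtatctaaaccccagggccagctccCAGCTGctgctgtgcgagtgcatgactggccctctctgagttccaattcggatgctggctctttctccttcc
It holds CANNTG 1 time, as do 72.3% of all 32851 windows, and no GGTCA. RefSeq windows were found for 8 of the 9 genes (12 windows). The full clock E-box CACGTG, present in 7.15% of all windows, is in 0 of these 12, and GGTCANNNTGACC, the inverted repeat of the oestrogen receptor, is in 0 of 12 against 0.07% of all. These letters are not in these windows, and more distant sequence was not searched.

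Pdyn (chromosome 2, 129686565 to 129699844, minus strand), the gene of dynorphin, had steadier levels of 29.6 to 46.2 CPM. It stood at 35.3 to 45.3 CPM with a median of 41.1 in fed controls and at 33.2 to 42.8 with a median of 38.9 in fasted controls. The fed S662D libraries stood at 46.2, 40.4, 42.1, 40.6 and 42.0 CPM and the fasted at 40.8, 35.1, 29.6, 34.2 and 40.0. Of the 5 fasted S662D libraries, 4 lay below all fed ones. The labelled knockout libraries stood at 40.2, 43.1, 44.2, 42.3 and 35.5 CPM.

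The fitted log2 difference of Pdyn on fasting in S662D mice was -0.23 (SE 0.0749, unadjusted p = 0.00408), and edgeR's adjusted p of 0.0997 did not pass 0.05. In controls it was -0.07 (-0.18 to 0.04), and the test of the difference between both responses gave -0.16 (SE 0.0923, adjusted p = 0.797 in edgeR). Among S662D libraries that carry the additional digit the difference was -0.31 (adjusted p = 0.0364 in edgeR), and among the others -0.12 (adjusted p = 0.999). Of all genes, 3.71% were called with the digit and 0.0373% without it. Pdyn was also 0.19 higher in the labelled knockout than in fasted S662D libraries on the log2 scale, with an adjusted p of 0.119 in edgeR. Fasted S662D replicates 3 and 4, which had the lowest Pdyn, also had the lowest summed hypothalamic markers of their group, 530 and 553 CPM against 706 to 732 in the other 3. Replicate 2 did not follow this: its Pdyn of 35.1 CPM was close to the 34.2 of replicate 4, with markers at 706 CPM. Replicates 2, 3 and 4 are the fasted S662D libraries with the additional digit. Over all libraries Pdyn followed that sum with r = 0.622 (rho = 0.616, permutation p = 0.00064, adjusted 0.0179) and 0.567 centred on library sets. It ran against the habenula sum with r = -0.475 (rho = -0.557, permutation p = 0.00261, adjusted 0.0487). The part of tissue composition in the Pdyn values was not tested. Its most similar genes were Hmgcs1 (r = 0.759), a sterol synthesis enzyme, and Igsf1 (r = 0.692).

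Gnrh1 (chromosome 14, 67745229 to 67749435, plus strand), the gene of the releasing hormone itself, had the fewest counts of the tested members. It received 11 to 48 counts per library, or 0.536 to 1.62 CPM, and the neurons that make it are known to be few and scattered, mostly through the preoptic area and septum. Medians were 0.861 CPM in fed controls, 0.892 in fasted controls, 0.994 in fed S662D, 0.661 in fasted S662D and 0.899 in the labelled knockout. In fasted S662D mice the libraries split into 3 at 0.576, 0.619 and 0.661 CPM and 2 at 1.29 and 1.42, so this group alone covered most of the range. The fitted log2 differences lay between -0.26 and 0.26 in the 7 comparisons, and their 95% intervals reached from -0.95 to 0.75. The biological coefficient of variation of Gnrh1 was 0.224, at percentile 86.4 of the genes tested. A change within the interval of its comparison was not excluded at this depth and this spread between libraries.

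Kiss1r (chromosome 10, 79916971 to 79922273, plus strand), the kisspeptin receptor, stood at 9.18 to 12.1 CPM in fed controls (median 10.1) and 7.74 to 11.2 in fasted controls (median 9.88). The fed S662D libraries stood at 9.41 to 11.1 CPM, the fasted at 9.21 to 11.9 and the labelled knockout at 8.85 to 11.4. All groups overlapped. Its fitted log2 differences ran from -0.09 (fasting in controls) to 0.16 (the difference of the fasting responses), and no 95% interval reached beyond 0.39 in size. Of its exon bases, 1.14% overlap R3hdm4.

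Tacr3 (chromosome 3, 134829007 to 134934579, plus strand), the neurokinin B receptor, was the steadiest of the 8 genes, with a biological coefficient of variation of 0.064. It stood at 12.4 to 15.7 CPM in fed controls (median 13.7) and 11.9 to 16.2 in fasted controls (median 14.8). The labelled knockout libraries stood at 15.7, 16.0, 16.3, 16.1 and 14.9 CPM and the fasted S662D libraries at 14.3, 13.8, 13.9, 14.4 and 13.2. These 2 groups did not overlap. How many of all genes did not overlap was not counted, so the non-overlap has no background here. In this comparison 7.34% of all genes tested were called, and 22.4% had an unadjusted p below 0.05 in edgeR. The fitted log2 difference of Tacr3 was 0.18 (SE 0.0726, unadjusted p = 0.0155), and edgeR's adjusted p of 0.116 did not pass 0.05. Against fasted controls, the labelled knockout differed by 0.13 (95% interval 0.00 to 0.26, adjusted p = 0.817 in edgeR) and 1 of its libraries exceeded all controls. These 2 comparisons share the labelled knockout libraries.

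Esr1 (chromosome 10, 4611593 to 5005614, plus strand), the oestrogen receptor alpha, stood at 5.25 to 10.8 CPM in fed controls (median 7.32) and 4.84 to 8.33 in fasted controls (median 6.44). The fed S662D libraries stood at 7.24, 8.99, 12.5, 11.9 and 9.25 CPM and the fasted at 6.61, 6.80, 8.70, 6.33 and 7.80. The labelled knockout stood at 7.40, 5.44, 8.25, 8.24 and 9.34. Of the fed S662D libraries, 2 lay above every fed control, and none lay below them all. The biological coefficient of variation was 0.169 for Esr1 and 0.166 for Prlr, at percentiles 76.4 and 75.8.

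Pgr (chromosome 9, 8899833 to 8968611, plus strand), the progesterone receptor, stood at 27.8 to 36.3 CPM in fed controls (median 31.3) and 24.9 to 34.3 in fasted controls (median 31.2). The fed S662D libraries stood at 29.6, 36.9, 38.3, 43.0 and 30.4 CPM and the fasted at 29.2, 28.9, 36.3, 31.9 and 31.0. The labelled knockout stood at 31.2, 34.8, 26.8, 34.6 and 32.9. The 3 fed S662D libraries above every fed control are those with the additional digit.

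Prlr (chromosome 15, 10177238 to 10349180, plus strand), the prolactin receptor, stood at 21.7 to 37.2 CPM in fed controls (median 26.0) and 20.1 to 32.7 in fasted controls (median 27.2). The fed S662D libraries stood at 21.7, 40.2, 35.01, 41.9 and 35.5 CPM and the fasted at 21.9, 21.1, 26.7, 23.4 and 31.2. The labelled knockout stood at 24.6, 27.9, 25.1, 32.2 and 27.6. Fed S662D replicate 1 was the lowest of its group for Esr1, Pgr and Prlr alike, and the other 4 fed S662D libraries were above all 5 fasted ones for Prlr. Of the exon bases of Prlr, 1.32% overlap Gm21973.

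**Figure D3:**
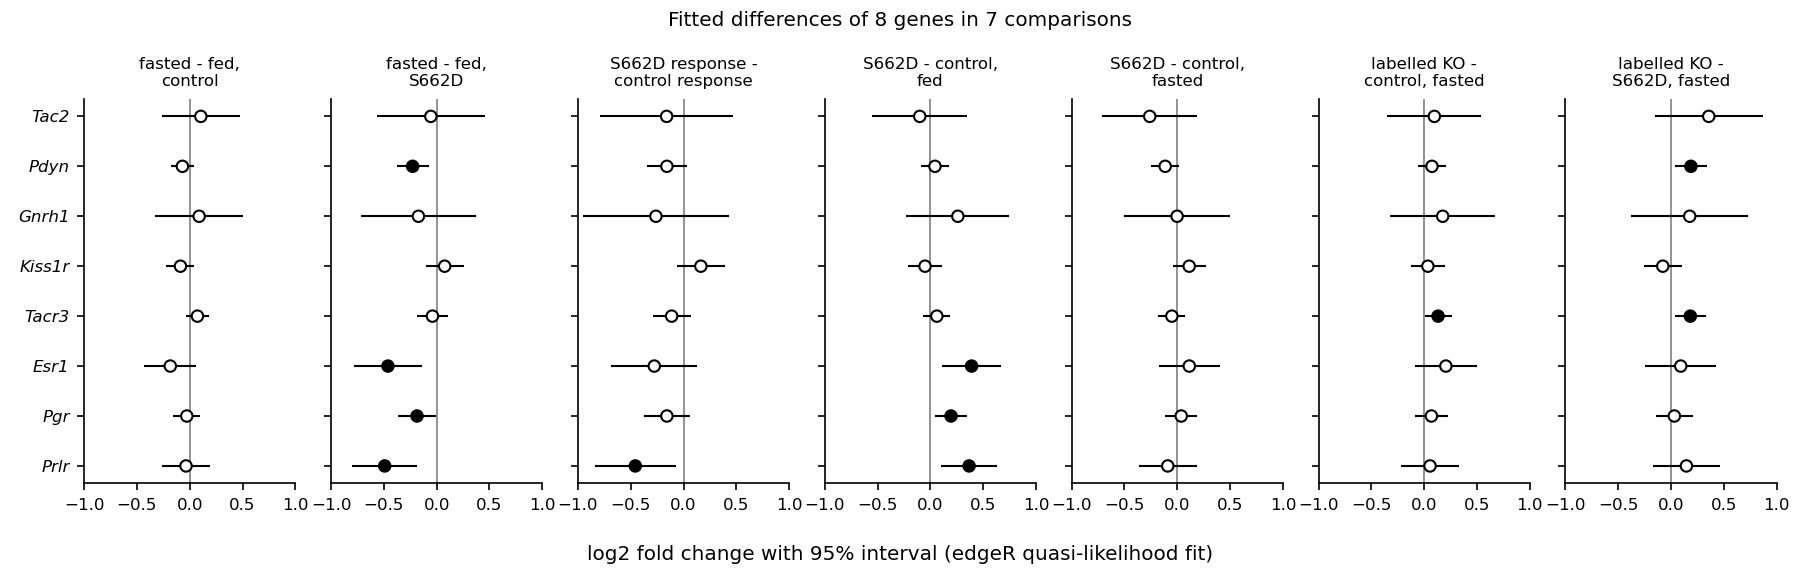
Fitted log2 fold changes of the 8 tested genes (rows) in the 7 comparisons (panels) with 95% intervals, from edgeR. Filled points have an unadjusted p below 0.05; none passes after adjustment over 18063 genes. Esr1, Pgr and Prlr are right of zero for S662D against control in the fed state and left of zero for fasting in S662D mice.

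Fasting in control mice called 701 of 18063 genes (3.88%) and 0 of the 8. No member had an unadjusted p below 0.05, against 13.3% of all genes, and DESeq2 called 0 as well. Their median log2 fold change was -0.03, against 0.00 over all genes. The largest in size was that of Esr1, -0.18 (95% interval -0.43 to 0.06, adjusted p = 0.579 in edgeR). The 2 control sets went opposite ways for the 3 hormone receptors. In control replicates 1 to 5 the log2 difference on fasting was 0.16 for Esr1, 0.13 for Pgr and 0.22 for Prlr. In control replicates 6 to 10 it was -0.51, -0.19 and -0.28. Neither set passed the test for any of them, with a lowest adjusted p of 0.0718 (Esr1, replicates 6 to 10). Tac2 went the other way, -0.26 in the first set and 0.43 in the second.

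Fasting in S662D mice called 476 genes (2.64%) and 0 of the 8 in edgeR, with 4 (against 14.3% of all genes) at an unadjusted p below 0.05 and 1 called by DESeq2 (Prlr, adjusted p = 0.0415). Besides Pdyn, these were Prlr at -0.49 (SE 0.152), Esr1 at -0.46 (SE 0.161) and Pgr at -0.19 (SE 0.0869) on the log2 scale. EdgeR's adjusted p was 0.0814 for Prlr, 0.134 for Esr1 and 0.311 for Pgr. The median over the 8 was -0.18, against 0.00 over all genes. Among libraries that carry the digit Prlr differed by -0.72 (adjusted p = 0.00998 in edgeR), and among the others by -0.10 (adjusted p = 0.999). The fit with the digit called 3.71% of all genes and the fit without it 0.0373%. Leaving out fed S662D replicate 1 made Esr1 and Prlr pass, leaving out fasted replicate 1 made Pdyn pass, and leaving out fasted replicate 5 made Prlr pass. Those fits called 3.1%, 3.21% and 2.45% of all genes.

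The difference between the fasting responses of S662D and control mice called 0 genes (0%) in edgeR and 0 in DESeq2, with 1151 genes (6.37%) and 1 of the 8 at an unadjusted p below 0.05. That gene was Prlr, whose log2 response in S662D mice differed from that in controls by -0.46 (SE 0.189, unadjusted p = 0.0214, adjusted 0.766). With control replicates 1 to 5 as the only controls it was -0.72 with an adjusted p of 0.0416 in edgeR, and with replicates 6 to 10 it was -0.21 with an adjusted p of 0.988. The first of these fits called 2.73% of all genes and the second 0%.

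S662D against control in the fed state called 847 genes (4.69%) and 0 of the 8 in edgeR and in DESeq2. An unadjusted p below 0.05 was reached by Esr1 at 0.39 (SE 0.140), Prlr at 0.37 (SE 0.131) and Pgr at 0.20 (SE 0.0756), with adjusted p-values of 0.0913, 0.0962 and 0.120 in edgeR. Over all genes, 21% reached an unadjusted p below 0.05 here. This comparison shares the fed S662D libraries with fasting in S662D mice, where Esr1, Pgr and Prlr were lower. Whether these 3 passed depended on the library sets, which are read from library numbers and whose nature is not stated. Against control replicates 1 to 5 alone all 3 passed (0.61 for Esr1, 0.56 for Prlr and 0.30 for Pgr; adjusted p 0.0141, 0.0133 and 0.0220 in edgeR), and against control replicates 6 to 10 none did (0.21, 0.20 and 0.10). Of all genes, 9.79% were called with the first control set and 0.185% with the second. With the S662D libraries that carry the digit all 3 passed (0.54, 0.53 and 0.34), and with those that do not, none did (0.11, 0.07 and -0.06). Of all genes, 16.9% were called with the digit and 0.0854% without it, so these calls moved as those over all genes did. Leaving out fed S662D replicate 1 made all 3 pass, leaving out fed control replicate 9 made Esr1 and Prlr pass, and leaving out fed S662D replicate 5 made Pgr pass. Those fits called 9.15%, 6.12% and 8.85% of all genes.

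The control sets themselves were compared after these values had been seen. In fed controls, replicates 6 to 10 lay above replicates 1 to 5 by 0.40 for Esr1 (SE 0.152), 0.35 for Prlr (SE 0.147), 0.19 for Pgr (SE 0.0826) and 0.17 for Pdyn (SE 0.0720). The unadjusted p-values were 0.0116, 0.0250, 0.0250 and 0.0239, none passed after adjustment (0.236 to 0.301 in edgeR), and 0 genes of all tested were called. The log2 difference of Esr1 between fed control sets was therefore as large as that between fed S662D and fed controls. In fasted controls the sets differed by -0.27 for Esr1, -0.16 for Prlr and -0.13 for Pgr, and 1088 genes were called, none of the 8 among them. Mean Esr1 was 6.54 ± 1.45 CPM (SD, n = 5) in fed control replicates 1 to 5, 8.65 ± 1.61 in replicates 6 to 10, 11.2 ± 1.90 (n = 3) in fed S662D libraries with the digit and 8.24 ± 1.42 (n = 2) in those without. What sets these libraries apart is not stated, and its part in the differences between genotypes was not tested.

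**Figure D4:**
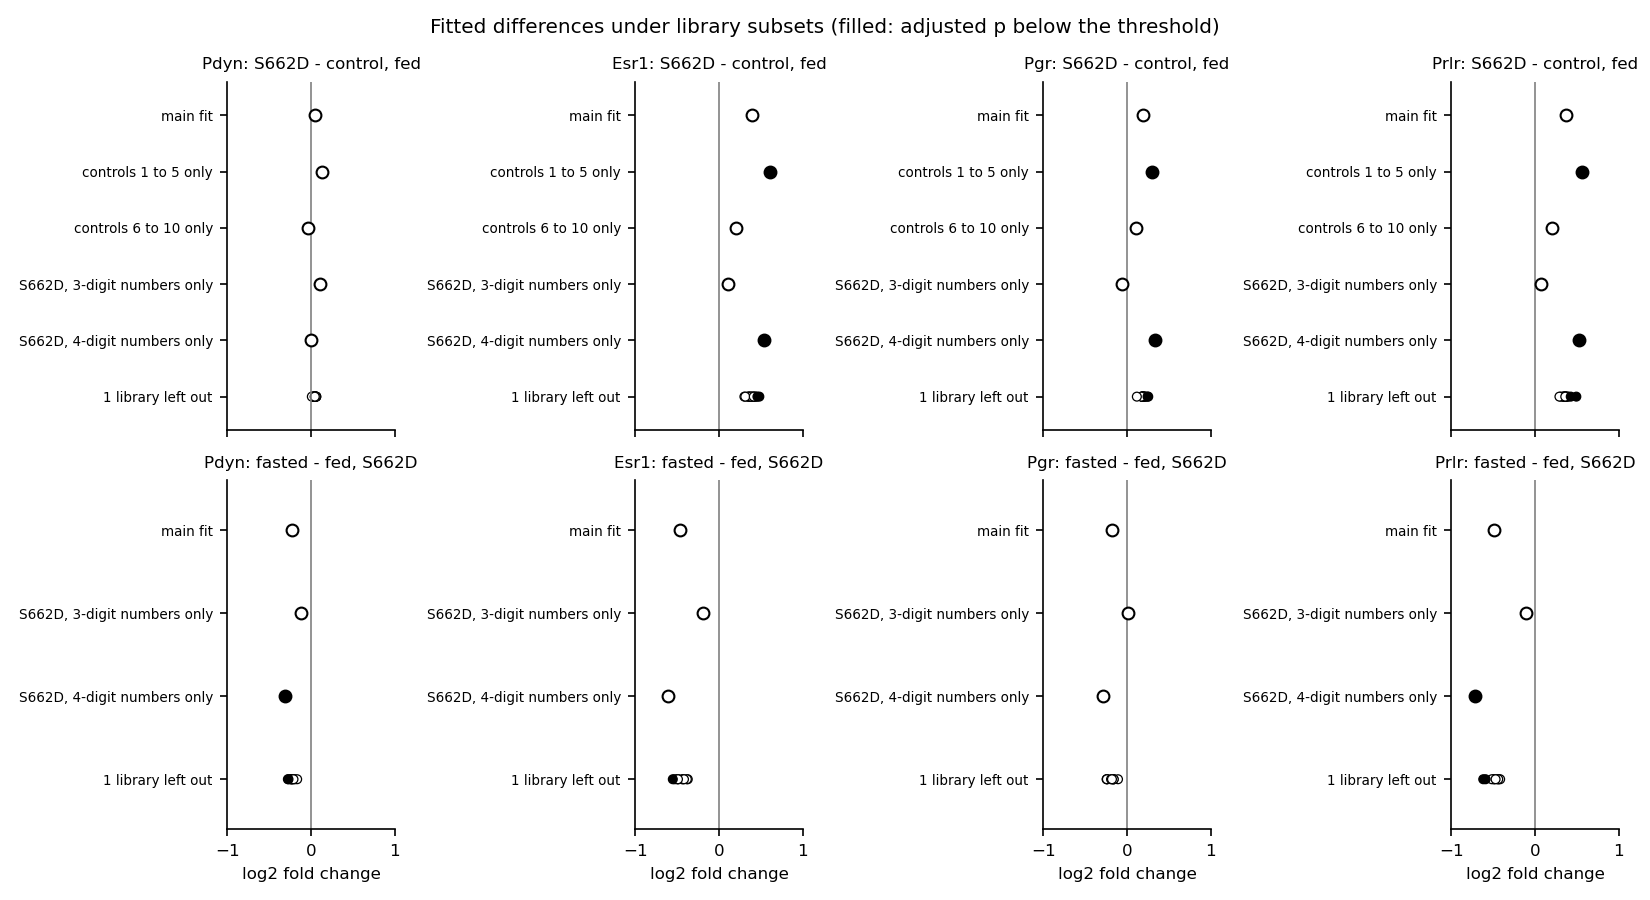
Fitted log2 fold changes of Pdyn, Esr1, Pgr and Prlr (columns) for S662D against control in the fed state (top) and for fasting in S662D mice (bottom), in all libraries, in the library sets and with 1 library left out at a time. Filled points have an adjusted p below 0.05 in edgeR; those of Esr1, Pgr and Prlr at the top are filled for control replicates 1 to 5 and for the S662D libraries with the additional digit.

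S662D against control in the fasted state called 1007 genes (5.57%) and 0 of the 8, none with an unadjusted p below 0.05 (20.8% of all genes) and 0 called by DESeq2. The largest in size was Tac2 at -0.26, and the lowest adjusted p was that of Pdyn (-0.11, adjusted p = 0.325 in edgeR). The labelled knockout against control, both fasted, called 5 genes (0.0277%) and 0 of the 8 in edgeR and in DESeq2, with only Tacr3 at an unadjusted p below 0.05 (6.07% of all genes). All 8 members were on the positive side, with a median of 0.09 against -0.004 over all genes. These 8 values come from the same libraries and are not independent of each other. The largest was Esr1 at 0.21 (95% interval -0.09 to 0.50). The labelled knockout against S662D, both fasted, called 1325 genes (7.34%) and 0 of the 8 in edgeR and in DESeq2, with Pdyn and Tacr3 at an unadjusted p below 0.05 (22.4% of all genes). Pdyn passed when fasted S662D replicate 1 was left out (0.24), a fit that called 10.2% of all genes. Over the 56 tests of a member in a comparison, 11 had an unadjusted p below 0.05, where 6.07% to 22.4% of all genes did so in a comparison, none passed after adjustment, and every 95% interval lay within -1 and 1.

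Among 21 pairs of the 7 members with a mean of at least 1 CPM, only Esr1 and Prlr varied together beyond the adjusted threshold. With log2 CPM centred on each group, Pearson's r was 0.635 and Spearman's rho 0.559 over 35 libraries (permutation p = 0.0001 and 0.00086, adjusted 0.0021 and 0.0181). It was 0.554 without the 2 libraries farthest from the median of Esr1 and 0.708 in the 20 control libraries. Centred on the library sets it was 0.462, for which no p-value was computed. The permutations, here and for the marker sums, ran within groups and not within library sets, so their p-values do not account for the sets. Esr1 and Pgr had r = 0.382 (adjusted p = 0.208, permutation) and Pgr and Prlr r = 0.417 (adjusted p = 0.203, permutation), and centred on the library sets these were 0.01 and 0.06. The genes most like Esr1 were Irs4 (r = 0.85), an insulin receptor substrate, and Dlx1 (r = 0.808), a homeobox factor. Those most like Prlr were Rybp (r = 0.760) and Greb1 (r = 0.758), a gene known for its induction by oestrogen, and those most like Pgr were Gsk3b (r = 0.856) and Cep85l (r = 0.817). Those most like Kiss1r were Lmnb2 (r = 0.665) and Xrcc1 (r = 0.662), and like Tacr3 Kdm1b (r = 0.590) and Rbbp9 (r = 0.589). These r-values are descriptions over 35 libraries that share the library sets.

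The windows around a start of Esr1 and of Prlr are shown because these 2 genes varied together (chr10:4611739-4612038 and chr15:10176988-10177287, GRCm38.p6, both plus strand), with CANNTG and GGTCA in capitals.
Esr1 promoter window: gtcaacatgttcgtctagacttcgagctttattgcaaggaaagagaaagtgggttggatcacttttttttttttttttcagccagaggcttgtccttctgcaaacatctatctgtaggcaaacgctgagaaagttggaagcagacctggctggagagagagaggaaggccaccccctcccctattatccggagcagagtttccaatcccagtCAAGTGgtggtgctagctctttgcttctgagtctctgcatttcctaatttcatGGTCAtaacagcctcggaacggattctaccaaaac
Prlr promoter window: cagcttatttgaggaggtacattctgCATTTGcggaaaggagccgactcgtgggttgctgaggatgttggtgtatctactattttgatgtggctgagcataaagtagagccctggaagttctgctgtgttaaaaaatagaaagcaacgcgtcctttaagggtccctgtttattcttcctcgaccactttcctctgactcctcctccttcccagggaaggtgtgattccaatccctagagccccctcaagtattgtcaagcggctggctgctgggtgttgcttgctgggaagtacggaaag
Each holds CANNTG 1 time. GGTCA is in the Esr1 window 1 time, in 40.5% of all windows, and not in the Prlr window. Among the 12 windows, found for 8 of the 9 genes and not for Gnrh1, 2 hold GGTCA, those of Kiss1 and of this start of Esr1.

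Other genes of the axis were read from lists chosen beside the members. Of 12 tested genes of peptide and receptor partners, 2 rose in fed S662D against fed controls and none fell, where 4.69% of all genes were called (563 higher and 284 lower). They were Npffr1, a receptor of RF-amide peptides, at 0.32 (SE 0.0876, adjusted p = 0.0294 in edgeR) and Oprm1, the mu opioid receptor, at 0.59 (SE 0.169, adjusted p = 0.0365). Tac1, the gene of substance P and neurokinin A, was 0.20 higher in the labelled knockout than in fasted S662D libraries (50.6 ± 2.60 against 43.8 ± 4.58 CPM, SD, n = 5 each), and no list member was called in the other 5 comparisons. In the comparison that called Tac1, 7.34% of all genes were called, 3 of 6 thalamus markers were called lower (Tcf7l2, Ramp3 and Lef1, median of the list -0.31) and 2 of 10 hypothalamus markers higher (Hcrt and Pmch, median of the list 0.17). The summed thalamus markers ran from 698 to 867 CPM in the labelled knockout and from 848 to 1000 CPM in fasted S662D, and the hypothalamus markers from 582 to 751 and from 530 to 732 CPM, with none at zero. Their part in the value of Tac1 was not tested.

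Of 8 tested genes of prolactin and JAK-STAT signalling, 1 fell on fasting in controls, where 3.88% of all genes were called (304 lower). Socs3, an inhibitor of cytokine and leptin signalling, stood at 2.67 ± 0.555 CPM fed and 1.89 ± 0.485 CPM fasted (SD, n = 10 each), and the log2 difference was -0.49 (adjusted p = 0.0229 in edgeR). It was -0.66 in control replicates 1 to 5 and -0.33 in 6 to 10, where the call was lost (adjusted p = 0.281). The first set called 7.4% of all genes and the second 1.71%. Stat5b, a transducer of prolactin and growth hormone signals, was 0.13 higher in fed S662D than in fed controls (adjusted p = 0.0472 in edgeR), where 4.69% of all genes were called. In the labelled knockout against fasted S662D, Ghr, the growth hormone receptor, rose by 0.32 and Socs1, another inhibitor of cytokine signalling, fell by 0.73 on the log2 scale (adjusted p 0.0249 and 0.0155 in edgeR), where 7.34% of all genes were called.

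Of 14 genes of puberty timing and neuron development, Tbx3, a transcription factor of arcuate neurons, fell on fasting in S662D mice and rose in fed S662D against fed controls. It stood at 10.0 ± 0.666 CPM in fed S662D, 6.96 ± 0.631 in fasted S662D (SD, n = 5 each) and 7.48 ± 1.13 in fed controls (n = 10). The log2 differences were -0.53 (SE 0.109, adjusted p = 0.0019) and 0.42 (SE 0.0942, adjusted p = 0.00786) in edgeR, where 2.64% and 4.69% of all genes were called, and these 2 comparisons share the fed S662D libraries. Irf2bpl, a transcriptional regulator linked to puberty, was higher in S662D than in control mice, by 0.21 fed and 0.20 fasted, and was 0.32 lower in the labelled knockout than in fasted S662D libraries. Nell2, a secreted neuronal protein, was 0.17 higher in fasted S662D than in fasted controls. The list's median was 0.09 in fed S662D against fed controls, beside -0.01 over all genes.

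Npffr1, Oprm1, Stat5b, Tbx3 and Irf2bpl, called in fed S662D against fed controls, passed again with the S662D libraries that carry the additional digit, and none of them passed with those that do not, against control replicates 6 to 10 alone or with the digit as a term of the fit. The first of these fits called 16.9% of all genes, and the others 0.0854%, 0.185% and 0.127%. Tbx3 on fasting in S662D mice passed with the digit as a term and among the libraries with the digit, but not among those without it (-0.47, adjusted p = 0.723 in edgeR). In that order, 3.3%, 3.71% and 0.0373% of all genes were called. For fasted S662D against fasted controls, Nell2 and Irf2bpl passed with the libraries that carry the digit, and neither did with those that do not, with the digit as a term or against control replicates 6 to 10 alone. Calls over all genes were 17.1% in the first of these fits and 0.112%, 0.111% and 0.269% in the others. Nell2 was also lost against control replicates 1 to 5 alone (adjusted p = 0.0734 in edgeR), where 9.45% of all genes were called. Of the 4 genes called in the labelled knockout against S662D (Ghr, Irf2bpl, Socs1 and Tac1), 4 passed with the S662D libraries that carry the digit and 0 with those that do not or with the digit as a term. Calls over all genes were 16.2%, 0.139% and 0.233% in these fits. No gene of these lists was called in the difference of the fasting responses or in the labelled knockout against controls.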

How the data were processed

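The authors deposited raw counts of fragments per gene name for each of 35 libraries. Per the file headers, featureCounts 2.0.1 counted paired fragments over the GENCODE M12 annotation with multi-mapping alignments included, no strand option and no option for fragments that overlap several genes. Per the submitters' processing notes, STAR 2.7.10b and build mm10 were used. Counts without strand add reads of overlapping antisense genes.

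Groups come from the labels. Genes were filtered with filterByExpr (minimum count 10), scaled with TMM and tested in 1 fit of all libraries with edgeR 4.0.16 (glmQLFit, robust, then glmQLFTest) in R 4.3.3. Benjamini-Hochberg adjustment ran over the 18063 genes tested, and a gene is called below 0.05. The common biological coefficient of variation was 0.09. FPKM divides CPM by the exon length of the tables. The fit was tested on simulated data. Over 120 pairs of libraries within a group, chi-square divided by its degrees of freedom was at least 2.53, more than counting error alone gives. Each library was treated as 1 replicate, and this value cannot show that each came from a separate animal.

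The members and lists were chosen with earlier results of these data known. Named were all 9 members, called genes of the pathway lists (at most 3 per list and comparison) and the 2 genes most like each member with a mean of at least 1 CPM. Alternatives were other scalings, no filter on low counts, DESeq2 1.42.0, only the groups compared, a replicate block, the library sets and each library left out. The comparison of the control sets, the centring on library sets and the relations to marker sums were chosen after seeing the data. Prl, Gnrhr and Tacr2 did not pass the filter. The list of sex steroid sensing and synthesis is not reported here. Limits at a count of 0 cover counting error only, whereas the intervals of the fitted differences also include the spread between libraries. Promoter windows are RefSeq's (GRCm38.p6). Of 56 relations of members to marker sums, those not given in the text did not pass the adjusted threshold.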

Additional observations from a re-analysis of the deposited data

Results flagged for a closer look

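Of 40 sets of 1 member in 1 group, 2 held a library that stood apart from the others, where chance gives about 1 in 20. Tac2 in fasted control replicate 9 was 36.2 CPM, with the next library at 27.0 and the lowest at 16.5 (a gap of 0.47 of the range, against a critical value of 0.466). That library had 53.3 CPM of habenula markers, second to replicate 10 in its group. Pdyn in fed S662D replicate 1 was 46.2 CPM, with the next at 42.1 and the lowest at 40.4 (0.714 against 0.71). The same library had the lowest Tac2, Esr1, Pgr and Prlr of its group.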

How the results depend on the processing

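The 8 tested members gave 1493 fitted values under other settings, of which 28 passed the threshold, and no called value changed sign. For fasting in S662D mice, scaling by library size alone called 2 members (Pdyn, adjusted p = 0.0479, and Prlr, 0.0489), DESeq2 called 1 (Prlr), the replicate block called 1 (Prlr, -0.48, adjusted p = 0.0415), the S662D libraries with the additional digit called 2, the digit as a term called 1 (Pdyn) and leaving out 1 library called 0 to 2. For the difference of the responses, control replicates 1 to 5 alone called 1. For S662D against control fed, the replicate block called 1 (Prlr, 0.40, adjusted p = 0.0493), control replicates 1 to 5 alone called 3, the libraries with the digit called 3 and leaving out 1 library called 0 to 3. The libraries with the digit called 1 (Pdyn) for S662D against control fasted (-0.24) and 1 (Pdyn) for the labelled knockout against S662D (0.32), where leaving out 1 library called 0 to 1. Replicate numbers were not taken to pair the samples, as no pair of groups had every same-number correlation over 0.1. Between fed controls and fed S662D, 3 of 5 were over 0.1 (up to 0.236). There, 3 of 5 libraries were most like their own number, so pairing is not excluded. The replicate block changed no other call of a member. Without the 2 farthest libraries, 3 member pairs passed (Esr1 and Prlr, Pgr and Prlr at r = 0.468, Tac2 and Pgr at r = -0.518). Calls over all genes moved most with the sets: for S662D against control fed from 847 to 16 without and 3106 with the digit, 23 with the digit as a term, 33 with control replicates 6 to 10, 1741 with 1 to 5, 1355 by DESeq2 and 66 to 1667 with 1 library left out. With library size alone, 44.4% of genes called for fasting in S662D mice were higher, against 68.5%, as were 25.3% against 60.1% for S662D against control fasted and 50.1% against 35.6% for the labelled knockout against S662D. Over the other settings, all-gene calls ran from 304 to 1315 for fasting in controls (701), 7 to 683 for fasting in S662D mice (476), 0 to 486 for the difference (0), 20 to 3148 for S662D against control fasted (1007), 2 to 99 for the labelled knockout against control (5) and 26 to 2986 against S662D (1325). With 1 library left out, the call was lost in 8 of 15 fits for Oprm1, 9 of 15 for Stat5b, 5 of 15 for Npffr1, 3 of 15 for Irf2bpl (each feeding state) and Nell2, 2 of 15 for Tbx3 in fed mice, 6 of 20 for Socs3, 5 of 10 for Tac1, 4 of 10 for Ghr and 1 of 10 for Socs1. Depth and the spread between libraries limit Gnrh1, and the annotation limits Kiss1.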
